A study of Mus musculus with 14 samples.

Results

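The carboxylesterases of mouse liver named here are 10 genes, Ces1c, Ces1d, Ces1e, Ces1f, Ces1g, Ces2a, Ces2c, Ces2e, Ces2g and Ces3a. They were chosen by their levels in sleep-deprived against control arrays of this same study, so the group difference of these genes is given as a description and carries no test. In all, 9 of the 10 were found among 22180 genes that had a probe set with exactly 1 gene symbol. Each of the 9 had 1 such probe set, and Ces2c was not analysed here. The array held 19 carboxylesterase genes by this rule, of which 10 were not among the chosen genes. Those 10 are also given, but the choice itself sets them apart, so nothing is read from their gap to the chosen genes.

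Liver RNA of 14 male C57BL/6J mice was measured on expression microarrays, with 7 mice sleep-deprived once for 6 h and 7 control mice. Sleep was disturbed in the wider study by changing cages, by a water platform or by gentle handling, without a statement of the method behind these arrays. The control mice were of the same strain and sex. For age, time of day and feeding state, no entry was found in the labels. The deposited values are log2 expression, on which a difference of 1 is a doubling, and the array medians lay between 3.44 and 3.49. A mouse is named by the number in its sample title, which was 1, 2, 3, 5, 6, 10 and 13 for sleep-deprived and 4, 7, 8, 9, 11, 12 and 14 for control mice. The labels do not state that each sample came from a separate animal, and each was taken as 1 mouse. The p-values measure the spread between these samples. In bulk liver, fewer cells of a type and less RNA per cell cannot be told apart.

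Carboxylesterases are serine hydrolases that cleave ester bonds of drugs, dietary esters and acylglycerols, and in hepatocytes most of them sit in the lumen of the endoplasmic reticulum. Some act on stored triacylglycerol and supply acyl chains for the assembly of very-low-density lipoprotein (VLDL), whereas others serve mainly in clearing foreign esters, and one is secreted into plasma. In the mouse the family has grown by tandem duplication into rows of closely related genes. Their hepatic transcription is known to respond to the nuclear receptors CAR and PXR, and several liver detoxification genes follow the clock-controlled factors that bind the D-box element.

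RefSeq promoter windows (assembly GRCm38.p6), which run from 250 bases before to 50 bases after the annotated start, were held for 7 of the 10 chosen genes and for 8 of the 10 other carboxylesterases. The windows of Ces1c, Ces1e and Ces1g are shown because each holds the D-box letters TTATGTAA, the form searched for the factors Dbp, Tef, Hlf and Nfil3, and that of Ces2g because it does not although the gene belongs to the chosen set. Capitals mark those letters, and each window reads 5′ to 3′ on the strand of its gene.
Ces1c: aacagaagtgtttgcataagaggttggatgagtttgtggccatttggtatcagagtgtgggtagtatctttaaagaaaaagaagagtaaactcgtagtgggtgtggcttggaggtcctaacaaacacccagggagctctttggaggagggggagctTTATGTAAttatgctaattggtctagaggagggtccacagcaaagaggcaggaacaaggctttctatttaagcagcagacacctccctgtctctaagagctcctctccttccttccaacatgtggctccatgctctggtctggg
Ces1e: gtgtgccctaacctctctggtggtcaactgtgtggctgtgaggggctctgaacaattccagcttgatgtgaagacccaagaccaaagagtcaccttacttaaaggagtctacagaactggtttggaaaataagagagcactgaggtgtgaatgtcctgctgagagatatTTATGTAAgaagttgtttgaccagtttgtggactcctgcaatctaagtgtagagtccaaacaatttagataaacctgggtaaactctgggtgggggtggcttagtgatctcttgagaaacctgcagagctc
Ces1g: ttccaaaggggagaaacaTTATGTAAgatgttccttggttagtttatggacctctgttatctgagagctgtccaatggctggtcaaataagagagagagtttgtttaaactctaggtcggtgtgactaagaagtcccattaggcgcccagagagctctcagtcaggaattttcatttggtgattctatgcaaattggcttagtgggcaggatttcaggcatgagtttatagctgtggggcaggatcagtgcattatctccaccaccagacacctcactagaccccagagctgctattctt
Ces2g: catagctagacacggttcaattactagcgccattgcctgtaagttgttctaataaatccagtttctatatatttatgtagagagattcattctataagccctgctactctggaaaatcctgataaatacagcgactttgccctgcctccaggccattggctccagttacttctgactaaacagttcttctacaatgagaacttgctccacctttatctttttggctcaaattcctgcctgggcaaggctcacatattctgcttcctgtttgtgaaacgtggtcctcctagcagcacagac
These windows lie at chr8:93131234-93131533 on the minus strand for Ces1c, chr8:93229570-93229869 on the minus strand for Ces1e, chr8:93337160-93337459 on the minus strand for Ces1g and chr8:104961468-104961767 on the plus strand for Ces2g. Relative to the annotated start, the letters begin at position -94 in Ces1c, -81 in Ces1e and -232 in Ces1g.

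Counted on both strands, TTATGTAA was present in 308 of 32851 RefSeq promoter windows of the same length, or 0.938%. It was present in 5 of the 6 Ces1 genes with a window (Ces1a, Ces1b, Ces1c, Ces1e and Ces1g, but not Ces1h) and in 0 of the 6 Ces2 genes with one. The windows of Ces3b, Ces4a and Ces5a held none. Stretches of 30 bases around the match are shown for the Ces1 genes to let the neighbouring letters be compared.
Ces1a: cgggaaagagcTTATGTAAgatgttgttgt
Ces1b: gagggggagctTTATGTAAttatgctaatt
Ces1c: gagggggagctTTATGTAAttatgctaatt
Ces1e: ctgagagatatTTATGTAAgaagttgtttg
Ces1g: ggggagaaacaTTATGTAAgatgttccttg
The stretches of Ces1b and Ces1c are the same in all 30 bases. The E-box letters CACGTG were in none of the carboxylesterase windows, against 7.15% of all windows. The nuclear receptor core AGGTCA was in the windows of Ces2a, Ces2h and Ces4a, against 16.3% of all windows, and the short HNF4 core CAAAG was in 12 of the 15 carboxylesterase genes with a window, against 53.9% of all windows. No D-box match overlapped a match of another of these motifs. A match describes letters only, and each motif was searched in its exact letters. Near forms of the D-box, such as ttatgtag in the Ces2g window, were not counted. Genes with the D-box letters included the largest difference of the chosen set (Ces1g) as well as one of the smallest (Ces1c). No window was held for Ces1d, Ces1f or Ces3a, of which Ces1f and Ces1d had large differences (-0.66 and -0.61). A link between the letters and the differences was not tested.

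All 9 measured genes had a lower mean in sleep-deprived than in control mice, from -0.076 on the log2 scale for Ces3a to -0.97 for Ces1g, with a median of -0.45. Over all 22180 genes the median difference was -0.0048, and 51.6% of genes were lower. In the limma fit over all genes, 6 of the 9 lay below control at an adjusted p under 0.05, against 4.62% of all genes called lower and 3.88% called higher. None of the 9 was called higher. These counts follow from the way the genes were chosen and nothing is read from them. For 3 of the 9, Ces1f, Ces1g and Ces2g, every sleep-deprived mouse lay under every control mouse, a separation that 1.79% of all genes showed in this direction.

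**Figure D1:**
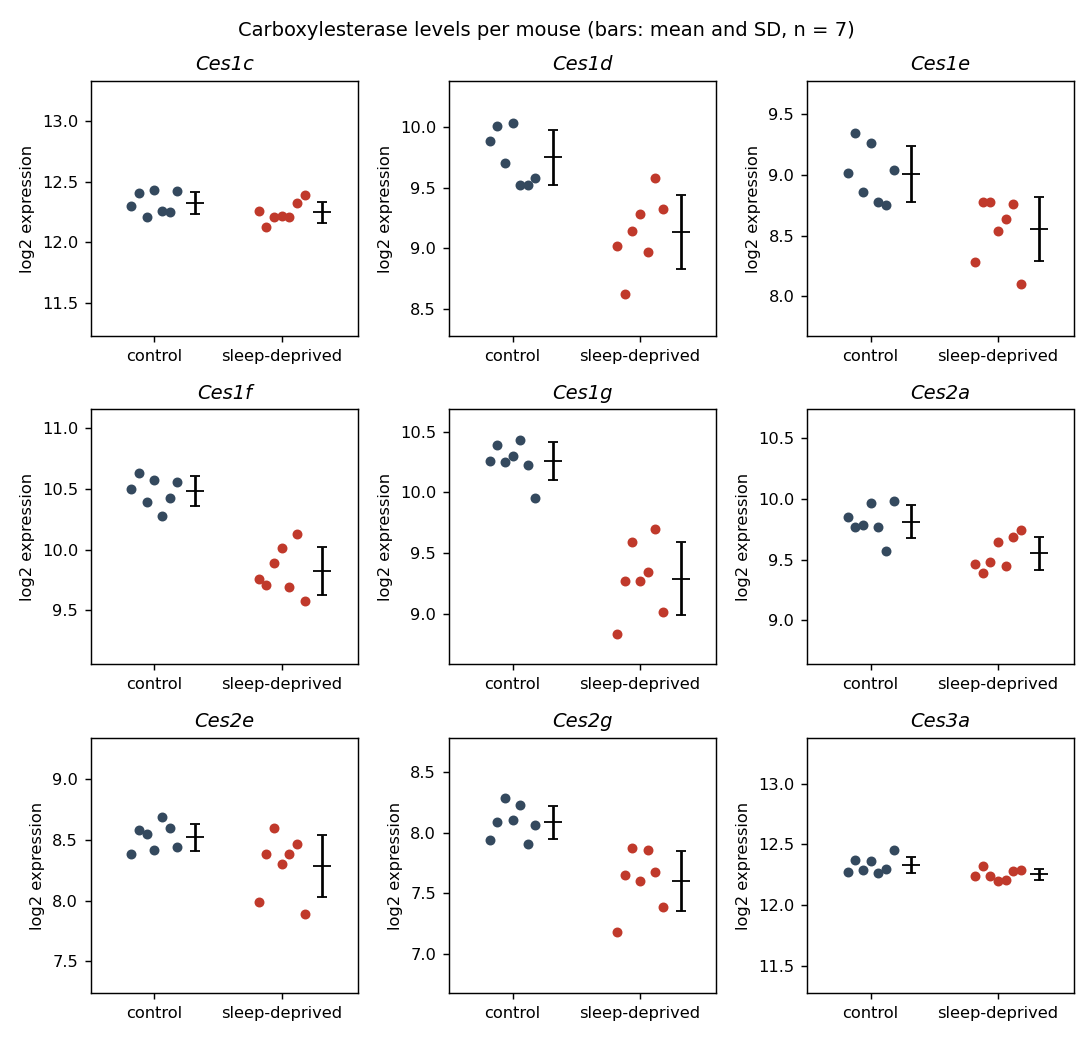
Log2 expression of the 9 measured carboxylesterases in each mouse, with control mice in dark blue, sleep-deprived mice in red and bars for the mean and SD (n = 7 per group), on vertical axes of equal span. The groups do not overlap for Ces1f, Ces1g and Ces2g, whereas for Ces1c and Ces3a they differ by under 0.1.

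Ces1g, also called Es-x or simply Ces1, hydrolyses hepatic lipid esters, and its loss in mice is known to raise liver and plasma lipids. Its log2 level ran from 9.95 to 10.43 with a median of 10.26 in control mice, and from 8.83 to 9.70 with a median of 9.27 in sleep-deprived mice. The groups did not overlap, and the lowest sleep-deprived mouse was mouse 1 and the highest mouse 10. The means were 10.26 ± 0.16 and 9.29 ± 0.30 (SD, n = 7 each), a difference of -0.97 ± 0.11 (SE), which puts the sleep-deprived mean at 51.0% of control on the linear scale. Control mouse 14, at 9.95, stood below the other 6 control mice, the next of which was at 10.23.

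Ces1d, known as triacylglycerol hydrolase, mobilises stored triacylglycerol in the endoplasmic reticulum for VLDL secretion. It ran from 9.52 to 10.03 (median 9.70) in control mice and from 8.63 to 9.58 (median 9.14) in sleep-deprived mice. In all, 6 of the 7 sleep-deprived mice were under every control mouse, and mouse 10, at 9.58, was level with control mouse 14 at 9.58. The means were 9.75 ± 0.22 and 9.13 ± 0.30 (SD, n = 7 each), a log2 difference of -0.61 ± 0.12 (SE) or 65.3% of control.

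Ces1f, a close relative with triacylglycerol hydrolase activity, ran from 10.27 to 10.63 (median 10.50) in control and from 9.57 to 10.13 (median 9.76) in sleep-deprived mice. The groups were clear of each other, and mouse 10 was again the sleep-deprived mouse nearest to control. The means were 10.48 ± 0.12 and 9.82 ± 0.20 (SD, n = 7 each), with a log2 difference of -0.66 ± 0.075 (SE) and 63.5% of control.

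Ces1e, called egasyn, binds beta-glucuronidase and holds it in the endoplasmic reticulum. It ran from 8.75 to 9.34 (median 9.02) in control and from 8.10 to 8.78 (median 8.64) in sleep-deprived mice. The ranges touched: sleep-deprived mice 2, 3 and 10 were at 8.78, 8.78 and 8.76, beside control mice 11 and 12 at 8.77 and 8.75. The means were 9.01 ± 0.23 and 8.55 ± 0.27 (SD, n = 7 each), a log2 difference of -0.45 ± 0.11 (SE) or 73.1% of control. Its binding partner beta-glucuronidase, Gusb, had a log2 difference of 0.099 ± 0.053 (SE) with a limma adjusted p of 0.334, and 0 of 4 genes of the list of beta-glucuronidase and the KDEL receptors that retrieve proteins to the endoplasmic reticulum passed in either direction.

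Ces1c encodes the carboxylesterase that the mouse liver secretes into plasma. It ran from 12.21 to 12.43 (median 12.30) in control and from 12.12 to 12.39 (median 12.22) in sleep-deprived mice. The ranges overlapped almost wholly, with 1 sleep-deprived mouse, mouse 2, under all control mice. The difference was -0.077 ± 0.045 (SE) in log2, from means of 12.32 ± 0.093 and 12.25 ± 0.086 (SD, n = 7 each).

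Ces2 enzymes prefer esters with a small acyl group and a large alcohol group, and several also cleave acylglycerols. Ces2a, which acts on di- and monoacylglycerols as well as drug esters, ran from 9.57 to 9.98 (median 9.78) in control and from 9.39 to 9.74 (median 9.48) in sleep-deprived mice. Control mouse 12, the lowest control at 9.57, was passed by sleep-deprived mice 5, 10 and 13. The means were 9.81 ± 0.14 and 9.55 ± 0.14 (SD, n = 7 each), a log2 difference of -0.26 ± 0.066 (SE) or 83.4% of control.

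Ces2g, whose promoter window lacks the D-box letters, ran from 7.91 to 8.28 (median 8.08) in control and from 7.18 to 7.87 (median 7.65) in sleep-deprived mice. The groups did not overlap, and sleep-deprived mouse 3, at 7.87, came nearest to the lowest control, mouse 12, at 7.91. The means were 8.09 ± 0.14 and 7.60 ± 0.25 (SD, n = 7 each), a log2 difference of -0.48 ± 0.093 (SE) or 71.5% of control.

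Ces2e ran from 8.38 to 8.69 (median 8.55) in control and from 7.89 to 8.60 (median 8.38) in sleep-deprived mice. Mice 1 and 13 were far under the control range at 7.99 and 7.89, while mouse 3 at 8.60 stood above most control mice. The means were 8.52 ± 0.11 and 8.29 ± 0.26 (SD, n = 7 each), and the log2 difference was -0.24 ± 0.091 (SE). Ces3a, a liver carboxylesterase of a separate subfamily, ran from 12.27 to 12.45 (median 12.30) in control and from 12.20 to 12.32 (median 12.24) in sleep-deprived mice. All 7 sleep-deprived mice were under the control mean, by a small margin. The difference was -0.076 ± 0.034 (SE), from means of 12.33 ± 0.068 and 12.26 ± 0.045 (SD, n = 7 each).

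Ces1c and Ces3a lay near the top of the scale, whose highest value on any array was 13.4. Whether the array responds less at such levels was not tested. The Ces1 genes are close paralogs, as are the Ces2 genes. Probe sequences were not used here, so signal shared between paralogs cannot be separated and single-gene values within a subfamily are uncertain to that extent.

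The sleep-deprived mice were unlike each other in the size of the difference. Averaged over the 9 genes, the deviation from the control mean was -0.62 in mouse 1, -0.54 in mouse 13, -0.48 in mouse 2, -0.42 in mouse 6, -0.39 in mouse 5, -0.31 in mouse 3 and -0.22 in mouse 10. Control mice ranged from -0.11 (mouse 12) to 0.11 (mouse 7). Mice 1 and 6 lay under every control mouse in 8 of the 9 genes, mice 2 and 5 in 7, mice 3 and 13 in 6 and mouse 10 in 3. These genes were chosen on the same mice, and the share of all genes was not counted per mouse, so the counts are descriptions. The lowest value of all 14 mice was found in mouse 2 for 3 genes, in mouse 13 for 3, in mouse 1 for 2 and in mouse 5 for 1.

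Pairs of the 9 genes had correlations of both signs across mice. After each group's mean was subtracted, 25 of the 36 gene pairs had a positive correlation over the 14 mice and 11 a negative one, with a median r of 0.314. None of the 36 passed 0.05 after adjustment, by Pearson's r or by Spearman's rho, with 100000 permutations within groups. With 14 mice, this does not show that a shared pattern is absent. These mice share their group labels and array scaling, and paralogs may share probe signal, which was not checked, so the values are descriptions.

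Ces1g and Ces2e went together most closely, with r = 0.828 (permutation p = 0.00286, adjusted 0.0515) and rho = 0.723 (permutation p = 0.0102, adjusted 0.0814). Without mice 1 and 10, the farthest from the median of Ces1g, r was 0.79. Ces2e and Ces2g had r = 0.786 (permutation p = 0.00617, adjusted 0.074) and rho = 0.771 (permutation p = 0.00446, adjusted 0.0598), with r = 0.622 without mice 13 and 1. Ces1c and Ces2a had r = 0.758 (permutation p = 0.00258, adjusted 0.0515) and rho = 0.771 (permutation p = 0.0015, adjusted 0.054), with r = 0.633 without mice 13 and 9. Among control mice alone, r was 0.537 for Ces1g with Ces2e, 0.28 for Ces1g with Ces2g, 0.402 for Ces2e with Ces2g and 0.682 for Ces1c with Ces2a. These pairs were the highest of the 36 and were picked for it.

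Some pairs had opposite signs in the 2 groups of 7 mice. Ces1c and Ces1e had r = 0.845 among control and -0.65 among sleep-deprived mice, and Ces1e and Ces2e had -0.476 among control and 0.965 among sleep-deprived mice. These pairs were picked after their values were seen, and the difference between the groups was not tested.

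**Figure D2:**
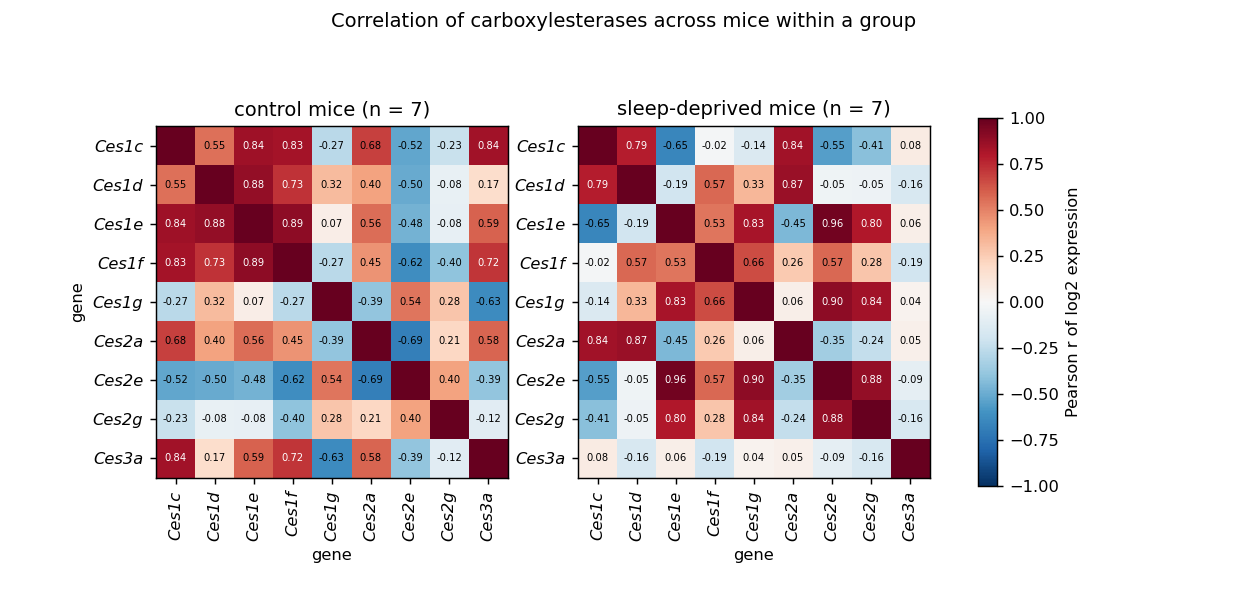
Pearson r between the log2 levels of each pair of the 9 carboxylesterases, separately for 7 control mice (left) and 7 sleep-deprived mice (right), with red for positive and blue for negative r. Ces1g, Ces2e and Ces2g have r of 0.839 to 0.895 among sleep-deprived and 0.28 to 0.537 among control mice, and Ces1c with Ces1e turns from 0.845 to -0.65.

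Outside the family, the genes most like Ces1g over the 14 mice, by within-group Pearson r, were Mme (r = 0.915), Mmut (r = 0.905) and Slc47a1 (r = 0.885). These genes, and those given below for Ces1f and Ces1d, were picked as the highest r among all such genes. Their r was not tested. Mme, which encodes the peptidase neprilysin, fell by 0.47 ± 0.12 (SE; limma adjusted p = 0.015), and Slc47a1, the efflux transporter MATE1, fell by 0.30 (limma adjusted p = 0.0142). Mme did not pass with the sample number as a covariate (limma adjusted p = 0.0523). Mmut, a mitochondrial mutase of propionate breakdown, did not pass, at -0.17 (limma adjusted p = 0.0999). For Ces1f the 3 genes were Hibadh (r = 0.87), Aldh3a2 (r = 0.864) and Sertad2 (r = 0.849). Of these Aldh3a2, a fatty aldehyde dehydrogenase, fell by 0.33 (limma adjusted p = 0.0196, or 0.0703 with probe sets of a gene averaged), and the other 2 did not pass. For Ces1d they were Zbtb34 (r = 0.897), 4930449E01Rik (r = 0.883) and Gsto1 (r = 0.88), and none of these 3 passed.

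By RefSeq's order of genes (GRCm38.p6), the family sits in 2 groups on chromosome 8. One holds 9 genes, the Ces1 genes and Ces5a, and the other holds 11, the Ces2 and Ces3 genes and Ces4a. From the first to the last family gene, RefSeq lists 11 genes in the first group and 21 in the second. Those outside the family were not read. In the first group, Ces1d, Ces1e, Ces1f and Ces1g, 4 genes that follow each other in the order of the family, lay between -0.45 and -0.97. The other genes of this group outside the chosen set did not pass: Ces1b was at -0.092 ± 0.086 (SE; limma adjusted p = 0.65), Ces1a at -0.13 (limma adjusted p = 0.615), Ces1h at -0.0076 (limma adjusted p = 0.977) and Ces5a at -0.11 (limma adjusted p = 0.619). Control means of Ces1a, Ces1h and Ces5a were 2.42, 2.10 and 2.54, under the array medians. Whether these dim genes were detected is not known, so their small differences say little. Ces1c, between Ces1b and Ces1d, was at -0.077.

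In the second group the chosen genes alternate with others. Ces2b was at -0.097 ± 0.31 (SE; limma adjusted p = 0.92), the pseudogene Ces2d-ps at -0.12 (limma adjusted p = 0.715), Ces2h at -0.088 (limma adjusted p = 0.686), Ces3b at -0.092 (limma adjusted p = 0.537) and Ces4a at 0.25 ± 0.13 (SE; limma adjusted p = 0.307). The control mean of Ces2h, 3.20, was also under the array medians. Of the 10 other carboxylesterases, Ces2f alone passed. It fell by 0.24 ± 0.070 (SE; limma adjusted p = 0.041), from 2.66 ± 0.13 to 2.42 ± 0.095 (SD, n = 7 each), at levels below the array medians. It no longer passed in 9 of 14 leave-one-out fits, namely without sleep-deprived mouse 2, 3, 6, 10 or 13 or control mouse 9, 11, 12 or 14, with limma adjusted p up to 0.091. In all, 0 of the 10 rose and 1 fell, beside 3.88% and 4.62% of all genes, and 9 of the 10 had a negative difference, with a median of -0.095, beside 51.6% of all genes.

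Ces2b and Ces4a had a wide spread in sleep-deprived mice. Ces2b ran from 3.79 to 4.51 (SD 0.29) in control and from 2.93 in mouse 1 to 5.99 in mouse 2 (SD 0.96) in sleep-deprived mice. Ces4a ran from 5.70 to 5.87 (SD 0.057) in control and from 5.51 in mouse 10 to 6.73 in mouse 2 (SD 0.39) in sleep-deprived mice. The difference in spread was not tested. Mouse 2 was thus the highest of its group in both, and it was the lowest of all mice for Ces1c, Ces1d and Ces2a.

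The 2 nearest measured protein-coding genes on each side of the groups were also read, as a choice made after seeing the data. Around the first group, Capns2, Slc6a2, Gnao1 and Nudt21 did not pass, with differences from -0.082 to 0.14. Around the second, Rrad and Ciao2b did not pass, whereas Cbfb rose by 0.37 ± 0.087 (SE; limma adjusted p = 0.0102) and D230025D16Rik rose by 0.26 ± 0.055 (SE; limma adjusted p = 0.0041).

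**Figure D3:**
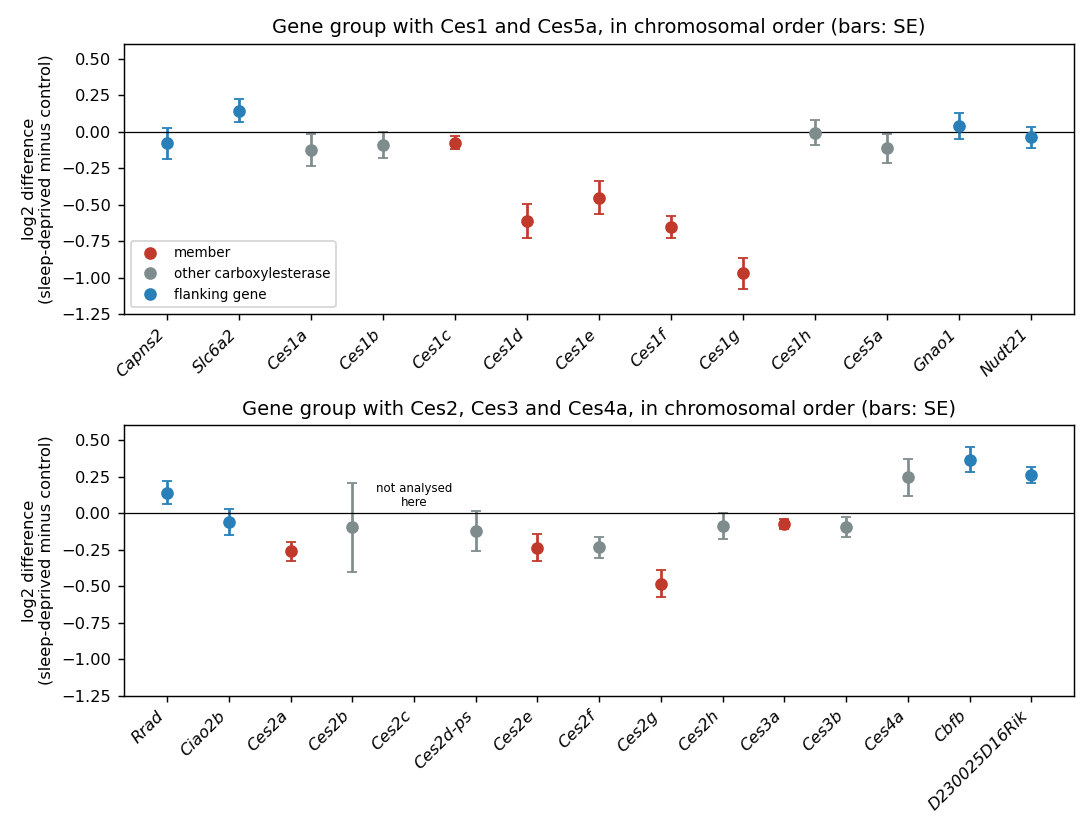
Log2 difference, sleep-deprived minus control, of the carboxylesterases and 2 flanking protein-coding genes on each side, in gene order along chromosome 8, with bars for the SE of the limma fit, the chosen genes in red, other carboxylesterases in grey and flanks in blue. Among the genes shown, Ces1d to Ces1g form a low run down to -0.97, while Cbfb and D230025D16Rik, beyond Ces4a, lie above 0. Genes outside the family that lie within the groups are not shown.

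Factors known to act on hepatic carboxylesterase genes gave 1 rise and 5 falls among the 19 of 21 listed genes that were measured, with a median difference of 0.016, against 3.88% of all genes called higher and 4.62% called lower. Dbp, an activator at the D-box, fell from 9.99 ± 0.18 to 9.08 ± 0.43 (SD, n = 7 each), by 0.91 ± 0.14 (SE; limma adjusted p = 0.000297), with no overlap between groups. Tef, a related activator, fell by 0.32 ± 0.077 (SE; limma adjusted p = 0.0105), and Nfil3, which represses at the same element, rose by 0.44 ± 0.094 (SE; limma adjusted p = 0.00412). Hlf, the remaining activator of that kind, was at 0.060 (limma adjusted p = 0.661). Over the 9 carboxylesterases, the within-group r of Dbp across the 14 mice ran from -0.782 (Ces1c) to 0.461, with a median of -0.03. That of Tef ran from 0.0119 (Ces1d) to 0.583 (Ces2g), with a median of 0.238. For Nfil3 it ran from -0.373 (Ces2e) to 0.674 (Ces1c), with a median of -0.0305. These r were not tested.

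Among nuclear receptors, Nr1i3, which encodes CAR, fell by 0.39 ± 0.11 (SE; limma adjusted p = 0.0304). That call was lost in 9 of the 14 fits without 1 mouse (sleep-deprived 1, 2, 3, 6 or 13 or control 4, 9, 11 or 14), with limma adjusted p up to 0.0682, and it was 0.0506 without the intensity trend, 0.0615 with robust fitting and 0.152 with the sample number as a covariate. Nr1i2, which encodes PXR, was at 0.14 (limma adjusted p = 0.162, and 0.0277 without sleep-deprived mouse 2). Nr3c1, the glucocorticoid receptor, fell by 0.22 ± 0.055 (SE; limma adjusted p = 0.0136) with no overlap between groups, and Ahr, the aryl hydrocarbon receptor, fell by 0.37 ± 0.093 (SE; limma adjusted p = 0.0146). Hnf4a, a hepatocyte factor, was at 0.24 ± 0.076 (SE; limma adjusted p = 0.0604), and passed without sleep-deprived mouse 2 (0.00891) or 3 (0.0356), among the brighter genes only (0.0372), after a further quantile normalization (0.0259) and with the sample number as a covariate (0.0239). Within groups, Nr1i3 had a median r of 0.291 with the 9 carboxylesterases, and its highest value was 0.705 with Ces2a. The median r was 0.224 for Nr1i2, -0.126 for Hnf4a and -0.0855 for Nr3c1. None of these r was tested.

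Genes known to respond to CAR and PXR held rises and falls. Of 20 measured among 25 listed, 2 rose and 5 fell, where 3.88% of all genes were called higher and 4.62% lower, and the median was -0.11. Cyp2b10, the textbook CAR target, rose by 2.37 ± 0.37 (SE; limma adjusted p = 0.000241), from 4.12 ± 0.64 to 6.49 ± 1.03 (SD, n = 7 each). Cyp2a5 fell by 0.82 ± 0.14 (SE; limma adjusted p = 0.000524), Aldh1a1, a retinal dehydrogenase, fell by 0.61 ± 0.066 (SE; limma adjusted p = 5.35e-06), and Cyp2c54 fell by 0.43 ± 0.084 (SE; limma adjusted p = 0.00208). Cyp3a11, the usual PXR target, was at 0.060 (limma adjusted p = 0.883).

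Other ester, amide and epoxide hydrolases gave 6 falls and 0 rises among 17 measured of 18 listed, with 16 of the 17 negative and a median of -0.13, against 4.62% of all genes called lower. Siae, a sialic acid esterase, fell by 0.44 ± 0.077 (SE; limma adjusted p = 0.000751). Bche, butyrylcholinesterase, fell by 0.28 ± 0.059 (SE; limma adjusted p = 0.0035), and Aadac, arylacetamide deacetylase of the endoplasmic reticulum, fell by 0.20 ± 0.047 (SE; limma adjusted p = 0.00889). Afmid, a formamidase of tryptophan breakdown, fell by 0.28 ± 0.072 (SE; limma adjusted p = 0.0151), and this was 0.0843 with the sample number as a covariate. Faah and Cmbl were the remaining 2 that fell, with limma adjusted p of 0.0426 and 0.0482. Each lost its call in 11 of the 14 leave-one-out fits (limma adjusted p up to 0.0954 for Faah and 0.108 for Cmbl) and in 4 of 8 other settings. Faah kept it only without sleep-deprived mouse 10 or control mouse 4 or 12, and Cmbl only without sleep-deprived mouse 6 or 10 or control mouse 14.

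Lipases outside the family held more rises than falls. Of 14 measured among 15 listed with their cofactors, 5 rose and 1 fell, with a median of 0.046, beside 3.88% and 4.62% of all genes. Pnpla2, the cytosolic triacylglycerol lipase ATGL, rose by 0.46 ± 0.056 (SE; limma adjusted p = 2.03e-05), and its activator Abhd5 rose by 0.40 ± 0.067 (SE; limma adjusted p = 0.000514). Mgll, which cleaves monoacylglycerol, rose by 0.34 ± 0.070 (SE; limma adjusted p = 0.00341), and Ddhd2 rose by 0.51 ± 0.11 (SE; limma adjusted p = 0.00386). Lipg, endothelial lipase, rose by 1.01 ± 0.15 (SE; limma adjusted p = 0.000118). Lipa, the lysosomal acid lipase, fell by 0.33 ± 0.082 (SE; limma adjusted p = 0.0129, or 0.0732 with the sample number as a covariate). Of 12 measured genes of VLDL and neutral lipid assembly among 14 listed, 2 rose and 0 fell, beside the same 3.88% and 4.62%. The median was -0.0016. Mttp, the triglyceride transfer protein that lipidates apolipoprotein B, rose by 0.28 ± 0.051 (SE; limma adjusted p = 0.00121). Fitm2, which acts in lipid droplet formation, rose by 0.36 ± 0.073 (SE; limma adjusted p = 0.00256).

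**Figure D4:**
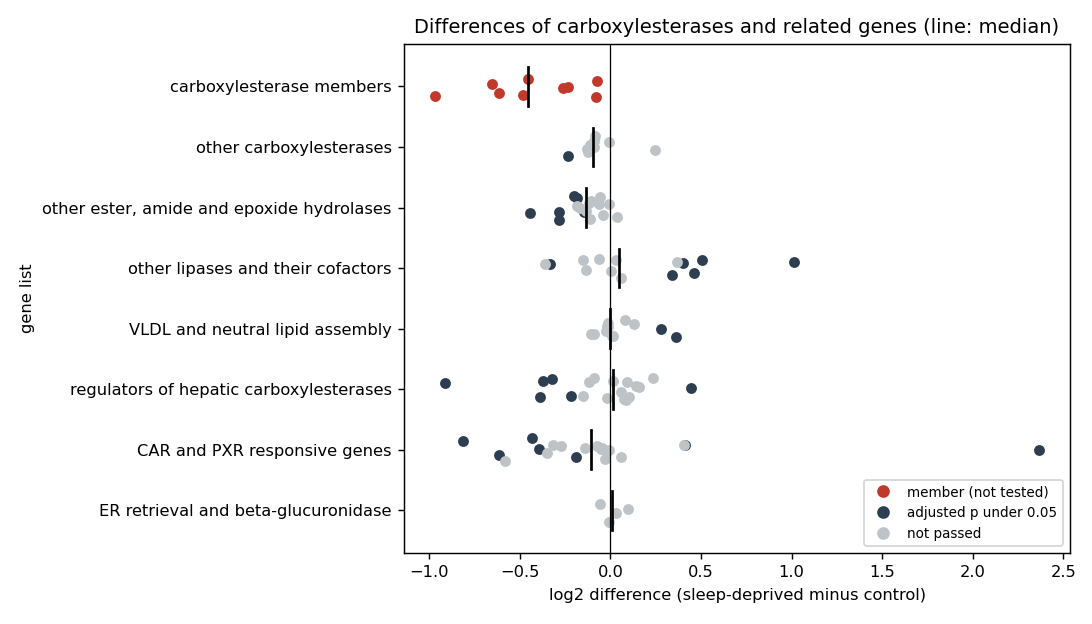
Log2 difference, sleep-deprived minus control, of each measured gene in the chosen carboxylesterases (red, not tested) and 7 lists, with black lines for list medians, dark points for a limma adjusted p under 0.05 and grey points for genes that did not pass. The chosen carboxylesterases centre on -0.45 and the other carboxylesterases on -0.095, while the lipases hold points on both sides of 0. The chosen genes were picked on this same contrast, so nothing is read from the gap between the carboxylesterase medians.

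Markers of hepatocytes and of the other cell types that bulk liver holds were read beside these values. The counts of called markers below stand beside 3.88% of all genes called higher and 4.62% called lower. On a scale that takes log2 of the mean linear value over a list, 7 hepatocyte markers gave 12.42 to 12.47 in control and 12.44 to 12.50 in sleep-deprived mice, and 1 of the 7, Apoa1, rose. The hepatocyte and pericentral lists hold genes near the top of the scale, such as Alb at 13.31 and Cyp2e1 at 12.98 in control mice. Whether the array responds less at such levels was not tested. Pericentral markers gave 11.01 to 11.13 in control and 10.94 to 11.07 in sleep-deprived mice (0 of 7 rose and 1, Lgr5, fell), and periportal markers 11.44 to 11.53 and 11.42 to 11.52 (0 of 4 rose and 1, Hal, fell). Sinusoidal endothelial markers gave 7.51 to 7.87 and 7.67 to 8.08, and 3 of 7 rose (Lyve1, Oit3 and Pecam1). Kdr, the 1 negative gene of that list, was at -0.18 (limma adjusted p = 0.114). Cholangiocyte markers gave 4.09 to 4.43 and 4.36 to 5.23, with 1 of 5, Sox9, rising. Kupffer cell markers gave 6.08 to 7.32 and 6.20 to 6.95, stellate cell markers 7.61 to 8.05 and 7.66 to 8.22, and adipocyte markers 3.00 to 3.30 and 3.05 to 3.42, with none passing in these 3 lists. Lymphocyte markers gave 3.39 to 3.67 and 3.39 to 3.65, and 1 of 6, Cd79a, fell. The calls of Apoa1, Pecam1 and Sox9 were lost in 4, 6 and 7 of the 14 leave-one-out fits, with limma adjusted p up to 0.0681, 0.0594 and 0.0812. Apoa1 lost it without sleep-deprived mouse 5 or control mouse 7, 11 or 12, Pecam1 without sleep-deprived mouse 1, 10 or 13 or control mouse 4, 8 or 11, and Sox9 without sleep-deprived mouse 1 or 10 or control mouse 4, 7, 8, 11 or 12. The deposited table holds no detection calls, and the part of the endothelial and cholangiocyte markers in the carboxylesterase differences was not tested.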

How the data were processed

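Arrays were made from 100 ng of total liver RNA with an Affymetrix whole-transcript kit, per the labels' protocols. The log2 values deposited by the authors were made with RMA, per the submitters' processing notes. RMA's version was not given in the sources used here. Of 41345 probe sets in the table, 23521 carried a single gene symbol, 1814 more than 1, and 16010 had no entry in the annotation. The probe set with the highest mean over all 14 arrays stood for each gene, and probe sets with several symbols were left out.

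All 22180 genes were fitted with limma 3.58.1 (R 4.3.3; lmFit, eBayes with intensity trend) over all 14 samples without covariates. The Benjamini-Hochberg adjustment ran over the full set of genes, and 0.05 was the threshold. No pseudocount or filter was used. The fit was tested on simulated data. Members and lists were chosen with earlier results of these data known. Named genes are the members, the other carboxylesterases, up to 4 called genes per list by adjusted p, 7 core genes (Nr1i3, Nr1i2, Hnf4a, Nr3c1, Aadac, Gusb, Cyp2b10) and the 3 genes most like each of Ces1g, Ces1f and Ces1d. Ahr, Hlf, Cyp3a11, Faah, Cmbl, Lipa, Ddhd2, the flanking genes and the named cell markers were picked after their values were seen. Permutation p-values of the member correlations were added later. A protein comparison was not run. Alternatives were 8 other settings and leaving out each mouse.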

Additional observations from a re-analysis of the deposited data

Results flagged for a closer look

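Values that stood apart from the rest of their group of 7 mice by Dixon's ratio were looked for in 50 genes, in both groups, and 9 of 100 gene groups had one. Chance gives about 1 in 20 groups. In Ces1g, control mouse 14 was the lowest control at 9.953, below the next at 10.23. In the other carboxylesterases, control mouse 9 was the lowest for Ces1h at 1.776 (next 2.052), and sleep-deprived mouse 2 the highest for Ces2h at 3.442 (next 3.147). Among regulators, sleep-deprived mouse 3 was the lowest for Nr3c1 at 7.43 (next 7.684), and sleep-deprived mouse 2 the lowest for Nr1i2 at 8.639 (next 8.845). Control mouse 11 was the highest for Cyp2a5 at 5.601 (next 4.943). Control mouse 7 was the highest of its group for Fitm2 at 8.282 (next 8.052), for Mmut at 9.535 (next 9.441) and for Aldh3a2 at 9.926 (next 9.638).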

How the results depend on the processing

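The log2 difference of all 9 chosen carboxylesterases stayed negative in all 22 alternatives, 8 settings and 14 fits without 1 mouse, and none moved by more than 1 SD. Ces1g ran from -1.04 to -0.89, Ces1f from -0.71 to -0.61, Ces1d from -0.69 to -0.53, Ces1e from -0.54 to -0.38 and Ces2g from -0.53 to -0.41. The count past the threshold was 5 with the sample number as a covariate, where Ces2a dropped out. It was 7 without sleep-deprived mouse 3, where Ces2e came in, and 6 in every other alternative. The number of all genes called lower also changed between these fits. The 9 genes were chosen on this same contrast, so their signs and counts are descriptions and nothing is read from them. Sample numbers averaged 5.71 in sleep-deprived and 9.29 in control mice, so they are unevenly spread over the groups. The count of other carboxylesterases that fell was 1, and 0 with the brighter genes only (Ces2f was then not tested), 0 with median centring and 0 with the sample number as a covariate. It ran from 0 to 1 when 1 mouse was left out. Other scalings moved the median of all genes by under 0.02. No paired analysis was run, because the sample titles give no pairing and their numbers run once over both groups. The number of arrays limits the precision. Dim genes such as Ces1a, Ces1h, Ces2f, Ces2h and Ces5a lie under the array medians, where the table gives no detection calls.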
